A study of Homo sapiens with 4 samples.

Results

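The genes described here are 44 genes of the G1/S transition and of DNA replication, taken as a fixed list of symbols from the 61860 gene identifiers of the series and found, all 44, in both deposited tables. Expression was measured by RNA sequencing after ribosomal RNA depletion in NK-92, a human natural killer cell line kept in medium with 20 ng/ml interleukin 2 (IL-2). Unedited cells (WT) were set beside ΔOGT-ISS cells, in which CRISPR-Cas9 had deleted an intronic splicing silencer of OGT, the gene of the enzyme that puts the sugar O-GlcNAc on proteins. Each line gave 1 library with human IL-2 at 48 h and 1 with human IL-2 at 24 h before RNA extraction, 4 libraries in all, and the titles name IL-2 only for the 24 h libraries. The design text says that the deletion was made to keep OGT expressed and O-GlcNAc high. Whether the edited line is 1 clone or a pool is not given in the sources used here, and with 1 edited line a difference cannot be told apart from any other difference between these cells.

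Before a cell copies its DNA, the origin recognition complex, CDC6 and CDT1 load the ring-shaped MCM2-7 helicase onto origins. The kinases CDC7-DBF4 and CDK2 then bring in CDC45 and the GINS complex, which turns the loaded ring into an active helicase, and polymerases, the sliding clamp PCNA and the clamp loader follow. D-type cyclins with CDK4 and CDK6 begin this step by inactivating the retinoblastoma protein, which frees E2F transcription factors to switch on many of the genes listed here. In lymphocytes IL-2 is a growth signal that drives entry into this cycle.

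Sequences around E2F-type sites are shown for 6 members because E2F factors are the usual link among these genes and because the 6 differ in direction between the times. The letters TTTCCCGC, TTTCGCGC, TTTGCCGC and TTTGGCGC, which can overlap each other, were searched on both strands in the 250 bases before each RefSeq gene start (GRCh38.p14). At least 1 match was found in 15 of the 37 members with an entry in the sequence table (40.5%), against 928 of all 27305 genes in it (3.40%). The sequences are written 5′ to 3′ on the gene's strand with the matched letters in capitals, and a match on the other strand reads as GCGGGAAA, GCGCGAAA, GCGGCAAA or GCGCCAAA.
E2F1: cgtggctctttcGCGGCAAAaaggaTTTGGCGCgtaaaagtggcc
E2F2: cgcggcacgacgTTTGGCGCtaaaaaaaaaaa
TYMS: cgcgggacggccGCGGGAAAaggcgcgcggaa
PCNA: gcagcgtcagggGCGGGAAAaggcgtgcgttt
MCM6: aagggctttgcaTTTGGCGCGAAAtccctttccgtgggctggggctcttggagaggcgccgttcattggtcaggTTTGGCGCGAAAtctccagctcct
MCM3: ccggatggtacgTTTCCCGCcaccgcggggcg
These stretches lie at chr20:33686386-33686430 (minus strand) for E2F1, chr1:23531256-23531287 (minus) for E2F2 and chr18:657602-657633 (plus) for TYMS. Those of PCNA, MCM6 and MCM3 lie at chr20:5126662-5126693, chr2:135876510-135876607 and chr6:52284897-52284928, all on the minus strand. The MCM6 stretch holds the run TTTGGCGCGAAA at 2 places, each of which is read as a match on both strands. TYMS and PCNA carry the same 8 letters on the same strand, yet TYMS was higher at 24 h and PCNA lower. As GENCODE draws the genes, the TYMS stretch lies almost wholly inside the gene, past its start at 657604, and the end of the E2F1 stretch also runs into the gene.

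The libraries held 10889986 (WT) and 11305599 (ΔOGT-ISS) counts at 48 h and 24809269 and 28576566 at 24 h, and 17492 genes passed the filter on low counts. OGT stood at 397 and 445 CPM (counts relative to library size, scaled by TMM, edgeR's correction for library composition) in edited and WT cells at 48 h and at 383 and 448 at 24 h, lower in the edited line in both pairs without passing the test (log2 difference -0.19, SE 0.16, edgeR adjusted p = 0.862). Counts per gene do not check the deletion itself. The 10 NK cell markers were all detected, with summed levels of 2860 to 4876 CPM. Of these, CD7 had only 7 counts in each 48 h library, against 331 (ΔOGT-ISS) and 251 (WT) at 24 h. Of 5 myeloid markers CD14 and LYZ stayed at 0 to 5 counts in every library, while the summed level of the 5 was 602 and 815 CPM for ΔOGT-ISS and WT cells at 48 h and 43.2 and 306 CPM at 24 h, nearly all of it S100A9. T cell markers summed to 211 to 341 CPM, mostly CD3E, and B cell markers to 53.8 to 81.2 CPM, mostly PAX5. In bulk RNA, fewer cells in a phase of the cycle and less RNA per cell cannot be told apart.

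Replication genes were abundant in every library. The 44 members together took 0.929% and 0.871% of all counts for ΔOGT-ISS and WT cells at 48 h and 1.01% and 0.933% at 24 h. On the length-scaled level (FPKM, as deposited), the clamp PCNA, the cyclin CCND2 and the helicase subunit MCM7 led, with means over the 4 libraries of 251, 249 and 242 FPKM. The order among these 3 was not stable, since PCNA ranged from 176 to 349 FPKM, CCND2 from 167 to 339.5 and MCM7 from 200.2 to 286. MCM4, MCM3 and RRM2, the small subunit of ribonucleotide reductase, followed at 195, 182 and 151 FPKM.

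The 6 MCM2-7 subunits form a ring with 1 copy of each, yet their RNA levels were unequal, from 54.1 FPKM for MCM5 to 242 FPKM for MCM7. The 4 GINS subunits, which also form a complex with 1 of each, ranged from 13.8 FPKM (GINS3) to 31.2 FPKM (GINS1). Among the G1/S cyclins, CCND2 and CCND3 averaged 249 and 91.2 FPKM, CCNE2 13.4 and CCNE1 3.31 FPKM, and the ranges of the first pair and the second pair over the libraries did not overlap. CCND1, a D-type cyclin outside the 44 genes, averaged 0.183 FPKM, below both E-type genes. Of the kinases, CDK6 averaged 74.4 FPKM, against 30.0 for CDK4 and 32.4 for CDK2, and its lowest library, at 64.0, lay above their highest, at 41.4.

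CDKN1A, which encodes the CDK inhibitor p21, was close to absent. It had 8 counts in ΔOGT-ISS and 0 in WT at 48 h, and 2 and 3 counts at 24 h, where a count of 0 allows up to 3 counts, or 0.283 CPM in the WT library of 48 h. It was the 1 member that did not pass the filter and was not tested. The other inhibitor, CDKN1B (p27), was present at 19.8 to 31.5 FPKM.

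The first comparison asked whether the edited line differed from WT in these genes. None of the 43 tested members passed the edgeR test between the lines, where 0.463% of all 17492 genes did (81 genes, 0.149% higher and 0.314% lower in ΔOGT-ISS). At an unadjusted p under 0.05 there were 3 members, CCND3, E2F1 and PCNA, and 1589 genes in all. The DESeq2 test also called 0 members, with 287 genes called in all. Limma called 0 genes in all, so its 0 members says nothing about these genes. The median log2 difference of the members was 0.04, against 0.02 for all genes tested, with 24 members above and 19 below 0, and the members' range ran from -0.60 to 0.49. The fit has 1 residual degree of freedom, which holds library noise together with any line difference that depends on the time. Its p-values, for the lines and for the times, therefore measure no spread between replicates. A miss does not show that the lines are alike. Counts per library carried more precision than the test could use, and the ratios at each time are therefore given with exact 95% intervals for counting error alone.

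**Figure D1:**
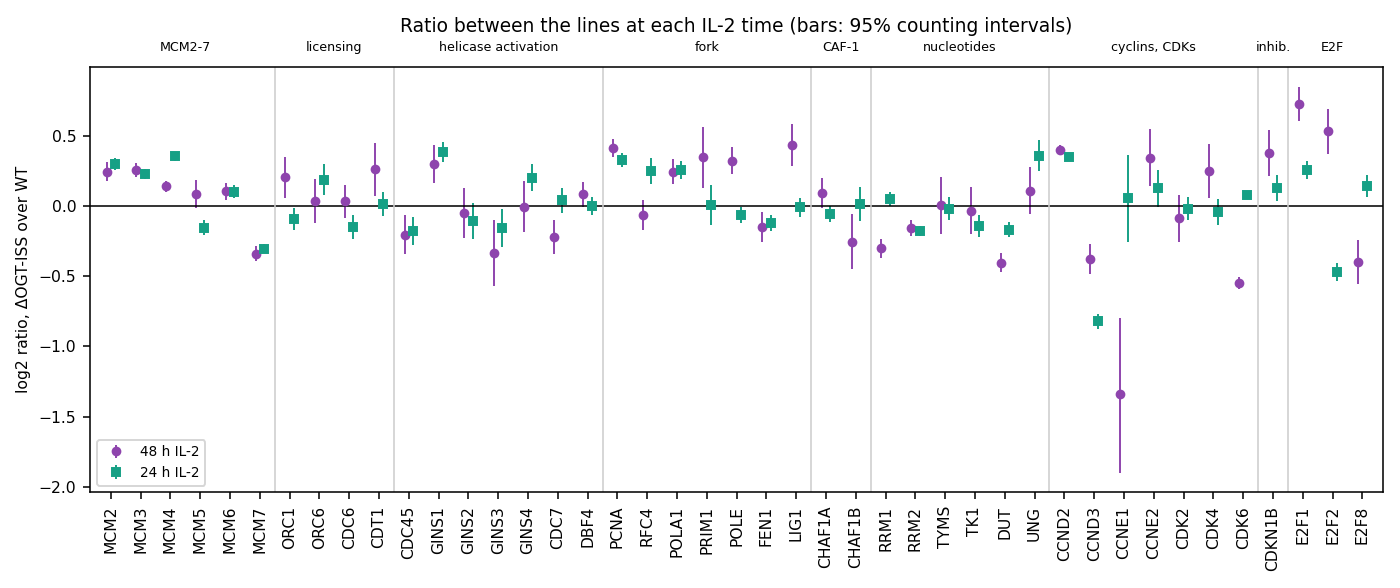
Log2 ratio of ΔOGT-ISS over WT for each member at 48 h (purple circles) and 24 h (green squares), from TMM-normalized CPM of 1 library per line and time, with 95% counting intervals. MCM2, MCM3, MCM4, PCNA, POLA1, GINS1, CCND2 and E2F1 lie above 0 at both times, MCM7, DUT and CCND3 below 0 at both, and E2F2 and CDK6 change side.

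The ratio lay above 1 at both times in 16 members and below 1 at both in 10, against 27.6% and 26.0% of all genes tested. With the counting interval clear of 1 as well, 10 members were above it and 7 below it at both times, against 9.38% and 10.3%. Since the members are well expressed and their intervals narrow, the fairer background, chosen after the data were seen, is the 7206 genes that averaged 20 CPM or more. There, 10 of 42 members (23.8%) lay above 1 at both times, against 14.9% of those genes. Among the 10 are E2F1, GINS1 and PCNA on chromosome 20, where the median ratio of neighbouring genes also lay above 1, as given below. Whether the members' share differs from that of those genes was not tested. Below 1 at both times were 7 of 42 members (16.7%), against 17.4%, which is no more than the background.

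In the helicase, 4 of 6 subunits lay above 1 at both times and MCM7 below it. MCM3 was measured at 659.7 and 553 CPM for ΔOGT-ISS and WT cells at 48 h and at 546 and 466 CPM at 24 h, ratios of 1.19 and 1.17, and MCM2, at 1.19 (1.13 to 1.24) and 1.23 (1.19 to 1.27), was close to it. MCM4, the most abundant of the 4 by CPM, stood at 922 and 835 CPM and then at 791 and 619 CPM. MCM7 went the other way, with 487 and 616 CPM at 48 h and 575 and 709 CPM at 24 h, ratios of 0.791 (0.763 to 0.820) and 0.811 (0.794 to 0.828). MCM5 lay on different sides of 1 at the 2 times, and none of the differences in the ring passed the test (edgeR adjusted p 0.651 to 0.985 for the 6). MCM7 lies on chromosome 7 (100092728 to 100101940, GRCh38), and its 40 nearest tested protein-coding genes had a median log2 ratio of 0.07 at 48 h and -0.30 at 24 h, against -0.34 and -0.30 for MCM7.

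The origin licensing genes had small line differences in the fit over both times. ORC1, the large subunit of the origin recognition complex, had 77.7 and 67.4 CPM for ΔOGT-ISS and WT cells at 48 h and 90.2 and 96.1 CPM at 24 h. ORC6 had 61.0 and 59.6 and then 54.0 and 47.4 CPM. The log2 differences of the 4 licensing genes, which also include CDC6 and CDT1, lay between -0.06 and 0.13.

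Of the helicase activators, DBF4, the regulatory subunit of the CDC7 kinase, was nearly equal between the lines at 24 h (150.3 and 150.0 CPM) and stood at 189 and 178 CPM at 48 h. CDC45, which joins MCM2-7 and GINS in the active helicase, was lower in ΔOGT-ISS in both pairs, at 70.0 and 80.5 CPM and at 59.7 and 67.4 CPM. GINS1 was higher in both, at 94.1 and 76.4 CPM and at 136 and 104 CPM, ratios of 1.23 (1.12 to 1.35) and 1.31 (1.24 to 1.38).

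At the fork, PCNA was higher in ΔOGT-ISS in both pairs. It had 439.5 and 329.5 CPM at 48 h and 283 and 225 CPM at 24 h, ratios of 1.33 (1.28 to 1.39) and 1.26 (1.22 to 1.30). On the log2 scale this was 0.37 (SE 0.16, edgeR adjusted p = 0.530). POLA1, the catalytic subunit of the polymerase that primes synthesis, had ratios of 1.19 (1.11 to 1.26) and 1.20 (1.14 to 1.25). FEN1, the flap nuclease that trims Okazaki fragments, lay slightly below 1 in both pairs, at 124 and 137 CPM and at 181 and 196 CPM.

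The chromatin assembly subunits CHAF1A and CHAF1B did not keep 1 side of the line ratio. CHAF1A had 135 and 126 CPM for ΔOGT-ISS and WT cells at 48 h and 179.7 and 187 CPM at 24 h, and CHAF1B had 34.8 and 41.4 and then 41.0 and 40.6 CPM. Among nucleotide genes RRM2 was slightly lower in ΔOGT-ISS in both pairs, at 426 and 475 CPM and at 499 and 564 CPM. DUT, the dUTPase that keeps uracil out of DNA, had 279.7 and 369.8 CPM at 48 h and 214 and 240.3 CPM at 24 h, ratios of 0.756 (0.722 to 0.793) and 0.891 (0.859 to 0.923). TYMS, thymidylate synthase, was level between the lines, with 37.2 and 37.1 CPM and then 83.9 and 84.9 CPM.

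The D-type cyclins went in opposite directions. CCND2 had 1471 and 1112 CPM for ΔOGT-ISS and WT cells at 48 h and 2164 and 1697 CPM at 24 h, ratios of 1.32 (1.29 to 1.35) and 1.28 (1.26 to 1.29). CCND3 had 120 and 155 CPM at 48 h and 168 and 296 CPM at 24 h, ratios of 0.771 (0.717 to 0.828) and 0.566 (0.545 to 0.587). CCND3 had the lowest p of all members between the lines, with a log2 difference of -0.60 (SE 0.17, edgeR adjusted p = 0.259), and CCND2 stood at 0.38 (SE 0.17, edgeR adjusted p = 0.583). CCNE1, the least abundant tested member, had 41 and 96 counts at 48 h and 197 and 161 counts at 24 h, a ratio of 0.396 (0.267 to 0.576) and then 1.04 (0.839 to 1.29). The inhibitor gene CDKN1B lay above 1 in both pairs, with 63.7 and 49.0 CPM and then 74.5 and 68.0 CPM.

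E2F1 had the largest positive line difference of the members. It stood at 129 and 77.9 CPM for ΔOGT-ISS and WT cells at 48 h and at 173 and 144 CPM at 24 h, ratios of 1.66 (1.52 to 1.81) and 1.20 (1.146 to 1.249), with a log2 difference of 0.49 (SE 0.18, edgeR adjusted p = 0.417). E2F2, also an activating E2F, crossed over, with 71.4 and 49.3 CPM at 48 h and 125 and 173 CPM at 24 h. E2F8, a repressing member of the family, crossed the other way, with 53.4 and 70.4 CPM and then 108 and 97.4 CPM. The 3 factors therefore shared no line difference.

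Several of these genes lie on chromosome 20, where neighbouring genes had ratios above 1 as well. E2F1 (33675683 to 33686404) had log2 ratios of 0.73 at 48 h and 0.26 at 24 h, while its 40 nearest tested protein-coding genes, between 31944342 and 35412141, had medians of 1.04 and 0.83. Of those 40, 30 lay above E2F1 at 48 h and 37 at 24 h. With the neighbours' median removed, E2F1 changed sign, to -0.42 (edgeR adjusted p = 0.697). GINS1 (25407727 to 25452628) had ratios of 0.30 and 0.39 on the log2 scale beside neighbours at 0.53 and 0.44, and PCNA (5114953 to 5126626) had 0.42 and 0.33 beside neighbours at 0.20 and 0.30. With the neighbours removed GINS1 stood at -0.12 and PCNA at 0.11 (edgeR adjusted p = 0.940 and 0.949). The GINS1 neighbours lay between 18138118 and 32743567, a wide stretch that overlaps that of the E2F1 neighbours. Genes such as TM9SF4 and POFUT1 count in both medians, so the GINS1 value rests partly on genes far from it. DUT, on chromosome 15 (48331011 to 48343373), had -0.40 and -0.17 beside neighbours at -0.33 and -0.30, and stood at 0.03 with them removed. CCND2 and CCND3 kept 0.29 and -0.60 under the same step.

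The line ratio did not always keep its side between the times. With both counting intervals clear of 1, E2F2, ORC1 and POLE lay above 1 at 48 h and below it at 24 h, and CDK6, E2F8 and RRM1 the reverse. POLA1, MCM2, MCM3, RRM1, POLE and CDK6 are named for values seen, outside the naming rule. Over all genes tested 4.35% crossed the first way and 5.16% the second. At 20 CPM or more each way held 7.14% of the members, against 5.72% and 10.5% of genes. E2F2 had ratios of 1.45 (1.30 to 1.62) and 0.724 (0.693 to 0.757). CDK6 went from 736 and 1075 CPM at 48 h to 853 and 809 CPM at 24 h, ratios of 0.685 (0.666 to 0.704) and 1.05 (1.04 to 1.07). With 1 library per line and time no test of this crossing was made.

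The second comparison set the 24 h libraries beside the 48 h libraries over both lines. Here 17 of 43 members passed the edgeR test (39.5%), 14 higher and 3 lower at 24 h, where 25.9% of all genes tested did (15.0% higher and 10.9% lower). The median log2 difference of the members was 0.22, against 0.07 for all genes. In 22 members both lines were higher at 24 h and in 15 both were lower, against 6524 and 6112 of all 17492 genes tested. The split depended on the scaling, with 12 higher and 5 lower under DESeq2 size factors or thinning, 11 and 5 under upper-quartile factors, and 17 and 1 without the filter on low counts. Genes that fell were the clamp, 1 clamp loader subunit and 1 helicase subunit. In chromatin assembly CHAF1A, with a log2 difference of 0.49, missed the threshold (edgeR adjusted p = 0.0528). It passed with the DESeq2 test (adjusted p = 0.0344), without the filter and with limma, and stood at -0.22 with the offsets. UBXN6, which overlaps CHAF1A on the opposite strand, also rose, from 26.8 to 55.5 CPM in WT cells (log2 0.95). Its part in the CHAF1A value was not tested.

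This difference varied with base composition. Over all genes tested the median log2 difference went from -0.38 in the lowest of 5 equal groups by GC content to 0.96 in the highest, and among the 43 members GC content and the difference correlated with r = 0.578 (rho = 0.586), a description over genes that share the same 4 libraries. With offsets for GC content and transcript length, 5 of 43 members passed (11.6%, against 11.7% of all genes): TYMS, CCND2, E2F8, MCM2 and GINS1. Of the 17 members past the main test, 3 were among these 5. With the offsets, GC content and the difference correlated with r = -0.255 among the members, against 0.0148 over all genes with GC content. The offsets were fitted to these same 4 libraries. Whether they shift members of high GC content too far was not tested. The 24 h libraries also held more of the signal recognition particle RNA RN7SL1 (2.76% and 4.39% of counts, against 0.394% and 0.425%), and time cannot be told apart from anything else that differed between the 2 pairs of libraries. The fall of the myeloid gene S100A9 given above moved with the time as well. The part of these differences in the members' values, beyond the offsets, was not tested. Without 1 library the other factor has to be left out of the model, and 1 time keeps only 1 library. Fewer members, and fewer genes in all, passed in each of these 4 fits than in the main fit. With all 4 libraries and no line term, 10 members and 3280 genes in all passed. Of the 17, TYMS alone passed in all 4 fits without 1 library, and MCM5, MCM6, GINS4, PCNA, FEN1 and CCND2 passed in none of them.

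TYMS passed under each of the 13 other settings tried. Its level went from 37.1 to 84.9 CPM in WT cells and 37.2 to 83.9 CPM in ΔOGT-ISS cells, ratios of 2.29 (2.06 to 2.56) and 2.26 (2.03 to 2.51). On the log2 scale the difference was 1.19 (SE 0.16, edgeR adjusted p = 0.00232), and 1.16 with the offsets (edgeR adjusted p = 0.00626). The gene on the opposite strand that overlaps it, ENOSF1, stood at 17.7 to 28.7 CPM with a difference of 0.57 (edgeR adjusted p = 0.0739), and its part in the TYMS value was not tested.

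Among the other nucleotide genes, TK1, thymidine kinase of the salvage route, rose from 54.7 to 103 CPM in WT cells and 53.5 to 93.8 CPM in ΔOGT-ISS cells (log2 0.86, SE 0.16, edgeR adjusted p = 0.00702). With 62.8% GC, it stood at -0.14 with the offsets. RRM2 went from 475 to 564 CPM in WT cells and 426 to 499 CPM in ΔOGT-ISS cells without passing (edgeR adjusted p = 0.308). DUT and RRM1 were lower at 24 h in both lines but fell short of the threshold (log2 -0.50 and -0.52, edgeR adjusted p = 0.0527 and 0.0545). Both passed as lower with DESeq2 size factors, with upper-quartile scaling and with the 24 h libraries thinned.

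All 3 E2F genes rose at 24 h. E2F2 went from 49.3 to 173 CPM in WT cells and 71.4 to 125 CPM in ΔOGT-ISS cells, ratios of 3.51 (3.20 to 3.85) and 1.75 (1.62 to 1.89), the largest log2 difference of the members at 1.31 (SE 0.24, edgeR adjusted p = 0.00728). It stood at 0.60 with the offsets and did not pass (edgeR adjusted p = 0.112). E2F8 went from 70.4 to 97.4 CPM in WT cells and 53.4 to 108 CPM in ΔOGT-ISS cells, a log2 difference of 0.74 (SE 0.18, edgeR adjusted p = 0.0226), and 0.82 with the offsets (edgeR adjusted p = 0.0299). It did not pass in 3 of the 4 fits without 1 library. E2F1 went from 77.9 to 144 CPM in WT cells and 129 to 173 CPM in ΔOGT-ISS cells (0.65, SE 0.18, edgeR adjusted p = 0.0301) and changed sign with the offsets, to -0.40 (edgeR adjusted p = 0.133), at 62.5% GC.

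Of the 7 G1/S cyclins and kinases, 4 rose. CCND2 went from 1112 to 1697 CPM in WT cells and 1471 to 2164 CPM in ΔOGT-ISS cells, so that its 4 libraries were ordered first by time and then by line. The log2 value was 0.58 (SE 0.17, edgeR adjusted p = 0.0404), and 0.67 with the offsets (edgeR adjusted p = 0.0451), but it did not pass with DESeq2 or upper-quartile scaling in place of TMM. CCND3 went from 155 to 296 CPM in WT cells and 120 to 168 CPM in ΔOGT-ISS cells (0.71, SE 0.17, edgeR adjusted p = 0.0212). CDK2 rose from 55.1 to 92.1 CPM in WT cells and 51.9 to 91.0 CPM in ΔOGT-ISS cells (0.78, SE 0.16), and CDK4 from 37.4 to 71.7 and from 44.5 to 69.8 CPM (0.79, SE 0.17). MARCHF9, on the strand opposite CDK4, also rose, from 11.6 to 28.7 CPM in WT cells. With the offsets CCND3, CDK2 and CDK4 stood at 0.15, 0.55 and 0.48 and did not pass. CDK6, CCNE1 and CCNE2 did not pass, and for all 3 the lines went opposite ways between the times.

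The helicase subunits divided. MCM6 fell from 399 to 252 CPM in WT cells and 429 to 271 CPM in ΔOGT-ISS cells (log2 -0.66, SE 0.16, edgeR adjusted p = 0.0181). MCM5 rose from 139.7 to 241 CPM in WT cells and 149 to 217 CPM in ΔOGT-ISS cells (0.67, SE 0.16, edgeR adjusted p = 0.0195). MCM6 has 43.1% GC and MCM5 57.0%, and with the offsets they stood at -0.46 and -0.01 and did not pass. MCM2, which went from 318 to 284 CPM in WT cells and 378 to 349.7 CPM in ΔOGT-ISS cells, passed only with the offsets, as lower at 24 h (-0.89, edgeR adjusted p = 0.0154). With the offsets all 6 subunits had negative values, with a median of -0.47.

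At the origin and in the activated helicase, CDT1 and GINS4 rose. CDT1, the loading factor that is destroyed once S phase begins, went from 39.7 to 79.4 CPM in WT cells and 47.6 to 80.3 CPM in ΔOGT-ISS cells (0.88, SE 0.17, edgeR adjusted p = 0.00819). At 64.9% GC it changed sign with the offsets, to -0.42 (edgeR adjusted p = 0.119). GINS4 went from 46.2 to 63.8 CPM in WT cells and 46.1 to 73.5 CPM in ΔOGT-ISS cells (0.57, SE 0.17, edgeR adjusted p = 0.0394), and stood at 0.53 with the offsets (edgeR adjusted p = 0.0752). It also missed with upper-quartile factors, limma and the DESeq2 test. GINS1 had a difference of 0.49 that fell just short (edgeR adjusted p = 0.0507) and passed with the offsets, at 0.77 (edgeR adjusted p = 0.0199).

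At the fork, 2 genes fell and 2 rose. RFC4, a clamp loader subunit, fell from 132 to 66.0 CPM in WT cells and 127 to 78.4 CPM in ΔOGT-ISS cells (log2 -0.85, SE 0.16, edgeR adjusted p = 0.00878), and stood at -0.60 with the offsets (edgeR adjusted p = 0.0508). EIF4A2, which overlaps RFC4 on the opposite strand, had 296 to 719 CPM and fell by 0.93 log2 units, and reads of the 2 genes cannot be told apart unless the counting used strand. PCNA fell from 329.5 to 225 CPM in WT cells and 439.5 to 283 CPM in ΔOGT-ISS cells (-0.59, SE 0.16, edgeR adjusted p = 0.0274) and stood at -0.33 with the offsets (edgeR adjusted p = 0.194). PCNA did not pass with limma or without the filter either. LIG1, the ligase that seals Okazaki fragments, rose from 60.3 to 132 CPM in WT cells and 81.7 to 132 CPM in ΔOGT-ISS cells (0.91, SE 0.18, edgeR adjusted p = 0.00843). FEN1 rose from 137 to 196 and from 124 to 181 CPM (0.53, SE 0.15, edgeR adjusted p = 0.0388), and with the offsets LIG1 and FEN1 stood at 0.28 and 0.18 and did not pass. FEN1 did not pass with DESeq2 size factors, upper-quartile factors or thinning. TMEM258, opposite FEN1, fell by 0.63 log2 units.

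**Figure D2:**
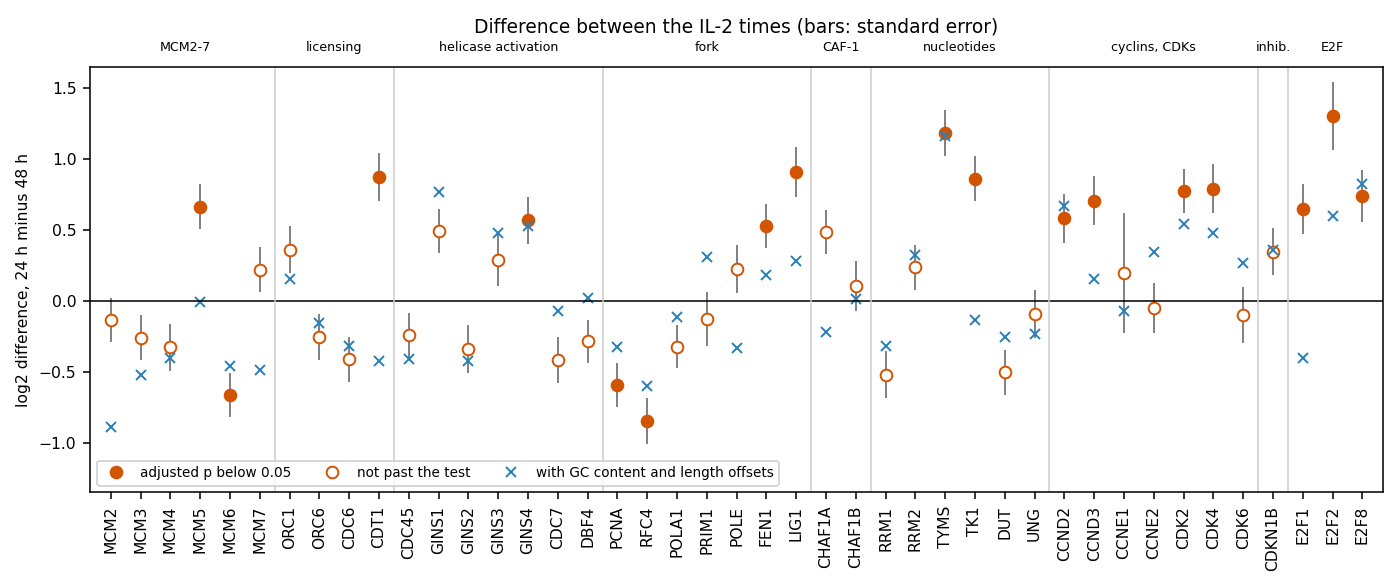
Log2 difference between 24 h and 48 h for each member from the additive edgeR model (circles, filled at an adjusted p below 0.05, bars 1 standard error), and the same with GC content and length offsets (crosses). TYMS, CCND2 and E2F8 stay past the test under the offsets, while CDT1, TK1 and E2F1 move to below 0 and MCM5 to about 0.

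The members not yet described, CDC6, CDC7, GINS2, GINS3, PRIM1, UNG and CCNE2, passed neither test. Their line differences ran from -0.24 (GINS3) to 0.24 (UNG) on the log2 scale, and their differences between the times from -0.42 (CDC7) to 0.29 (GINS3).

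Members with and without an E2F-type match were set side by side. Of the 15 members with a match, 7 passed the test between the times, and 5 of the 21 tested members with an entry but no match did, where 25.9% of all genes passed. The median log2 differences were -0.09 and 0.20. Of the 7 with a match that passed, TYMS alone also passed with the offsets. Members without an entry are in neither group, and among these MCM5, GINS4, CCND2, CDK2 and E2F8 passed between the times. Whether the members with a match differ from the others was not tested. Between the lines the medians were 0.13 and -0.06.

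Other genes of the same pathway were counted in the same way. Of 70 tested genes of replication and G1/S outside the list, 1 passed between the lines (1.43%, against 0.463% of all genes) and the median was 0.04. This was SAMHD1, which breaks down dNTPs and so opposes the nucleotide genes above. It had 507 and 221 CPM for ΔOGT-ISS and WT cells at 48 h and 559 and 282 CPM at 24 h, higher in ΔOGT-ISS in both pairs (log2 1.09, SE 0.16, edgeR adjusted p = 0.0432). No gene at all passed in 3 of the 4 fits without 1 library or with limma, SAMHD1 included. It too lies on chromosome 20 (36889773 to 36951901), where its 40 neighbours had medians of 0.72 and 0.47, and with these removed it stood at 0.52 and did not pass (edgeR adjusted p = 0.477).

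Between the times 25 of those 70 genes passed, 14 higher and 11 lower (35.7%, against 25.9%), with a median of -0.06. The 6 largest were POLD4 (2.18), CDKN2C (1.83), CHTF18 (1.73), RECQL4 (1.71), RPA3 (-1.65) and ASF1B (1.55). POLD4 had only 16 and 15 counts for ΔOGT-ISS and WT cells at 48 h, against 165 and 177 at 24 h. With the offsets 7 of the 70 passed, and CDKN2C, RPA3 and ASF1B were among them, at 1.09, -1.47 and 0.87. CDKN2C encodes p18, an inhibitor of CDK4 and CDK6, and went from 36.3 to 127 CPM in WT cells and 28.7 to 103 CPM in ΔOGT-ISS cells. RPA3, the small subunit of the single-strand binding protein, went from 74.7 to 20.0 CPM in WT cells and 61.6 to 23.3 CPM in ΔOGT-ISS cells. In both genes the 4 libraries were ordered by time, but both were picked for a large time difference, so this order adds no support.

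Of 23 G2/M genes 0 passed between the lines (2 at an unadjusted p under 0.05, median 0.02), and the largest values were NUSAP1 (-1.13) and TPX2 (0.79). NUSAP1 had 4 and 18 counts for ΔOGT-ISS and WT cells at 48 h and 136 and 173 at 24 h. Its values between the lines and between the times therefore rest on few counts at 48 h. TPX2, also on chromosome 20, passed with the DESeq2 test (adjusted p = 0.00149) and stood at -0.05 with the median of its neighbours removed. Between the times 6 passed, 4 higher and 2 lower (26.1%, with a median of 0.02). They were NUSAP1 (2.71), PLK1 (0.92), CDC20 (0.92), CCNB1 (-0.70), HMMR (-0.61) and KIF20A (0.54). Whether the replication genes differ from these lists was not tested.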

How the data were processed

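Libraries were prepared with RiboCop (removal of ribosomal RNA) and the CORALL V2 kit, per the labels' protocols. The counts were deposited raw, per Ensembl gene, and the authors' FPKM values divide them by transcript length and library size. The submitters' processing notes name HISAT2 2.2.0, SAMtools 1.15.1, featureCounts 2.0.1 and hg38. Which annotation release and strand setting were used, and whether molecular identifiers were collapsed, the sources used here do not state. On the strand opposite 24 members lies another gene.

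Counts were tested with edgeR 4.0.16 (R 4.3.3), quasi-likelihood F tests with TMM and filterByExpr (minimum count 10). The model was additive in line and time over all 4 libraries. It was also run on simulated data whose line differences were larger than any of the members' and did not depend on the time. That run does not cover differences of the members' size. P-values were two-sided and Benjamini-Hochberg adjusted over 17492 genes (threshold 0.05). The SE is the log2 difference divided by the square root of F. Ratios of 2 libraries carry exact conditional binomial 95% intervals, which cover counting error only. Nothing in the labels says that libraries came from separate cultures. Alternatives used DESeq2 1.42.0, limma 3.58.1 on log2(FPKM + 1) and log2(FPKM + 0.1), other scalings, thinning, GC content and length offsets (16884 genes had values) and the median of the 40 nearest tested protein-coding genes. Positions are from GENCODE 29 (GRCh38) and sequences from RefSeq (GRCh38.p14). The members, roles and lists were chosen with earlier results of these data known. Values in every library are given for members past a test, the 2 highest per role by FPKM and the 8 largest differences per comparison. Of the other lists, genes past a test were named, at most 6 per comparison, or else the 2 largest.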

Additional observations from a re-analysis of the deposited data

Results flagged for a closer look

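For 6 members the ratio between the lines lay on opposite sides of 1 at the 2 IL-2 times, with both counting intervals clear of 1. The change of the log2 ratio from 48 h to 24 h was -1.00 for E2F2, 0.62 for CDK6, 0.54 for E2F8, -0.38 for POLE, 0.35 for RRM1 and -0.30 for ORC1. Each rests on 1 library per line and time, so the difference was not tested. Of all genes tested, 4.35% crossed from above 1 to below it and 5.16% the reverse. Among genes that averaged 20 CPM or more these shares were 5.72% and 10.5%, against 7.14% of the members each way.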

How the results depend on the processing

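No member passed between the lines under any of the 14 other settings run, where the smallest adjusted p of a member ranged from 0.113 to 1.00. The 81 genes called between the lines became 154 with DESeq2 size factors, 287 with the DESeq2 test, 546 without the filter, 0 with limma on FPKM (1618 and 1543 at an unadjusted p under 0.05 with the 2 pseudocounts), 42 with the 24 h libraries thinned and 18 with neighbours' medians removed. Without the term for IL-2 time, which pairs the lines (no replicate block), it was 0 (242 unadjusted). Leaving out 1 library gave 0 to 16 (295 to 589 unadjusted). Between the times, GC content and length offsets gave 2052 genes (41.8% higher, against 57.9%) and 5 members. Of members past the test, CDT1 (-0.42), TK1 (-0.14) and E2F1 (-0.40) changed sign and MCM5 went to about 0 (-0.0073). CHAF1A, MCM7, POLE, DBF4, PRIM1, CCNE1, CCNE2 and CDK6, which had not passed, changed sign too. Without the replicate block (no line term) 10 members passed, beside 3280 genes in all. Leaving out 1 library gave 1092 to 3655 genes and 1 to 9 members. The cause of these shifts was not tested, and fits to 3 libraries also drop the other factor. Without the filter 75.8% of called genes were higher at 24 h and the median of the main genes moved from 0.07 to 0.29. Depth limits CDKN1A and CCNE1 most.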
